A study of Bos indicus x Bos taurus with 17 samples.

Results

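The Wnt signalling genes that act outside the cell and at its surface were followed in the liver and skeletal muscle of bovine fetuses at about day 105 of gestation. The genes were chosen by symbol: 19 WNT ligands, 10 Frizzled receptors (FZD), the co-receptors LRP5 and LRP6, and 10 secreted inhibitors (DKK1 to DKK4, SFRP1, SFRP2, SFRP4, SFRP5, FRZB and WIF1), in all 41 of the 21048 genes in the count tables. Every fetus was an F1 hybrid of Bos taurus indicus (Nelore breed) and Bos taurus taurus (Holstein breed). Control-AI fetuses (n = 2, numbers 2 and 4) were conceived by artificial insemination, and ART-Normal fetuses (n = 4, numbers 1 to 4) were produced in vitro by assisted reproduction (ART). The body weights of ART-Normal 1 to 3 were close to those of controls by the study's description, while number 4 is ART-Normal by its label and its weight is not given in the sources used here. Each of the 6 fetuses gave 1 liver and 1 muscle library, so that 12 libraries of poly(A)-selected RNA were compared. Fetuses are biological replicates, and the liver and muscle of a fetus share an animal. Kidney libraries and overgrown ART fetuses of the study were not analysed here.

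Wnt ligands are lipid-modified secreted proteins that bind a Frizzled receptor together with a co-receptor. With LRP5 or LRP6 the complex stabilizes β-catenin, which then turns on target genes with TCF and LEF factors, whereas other ligand and receptor pairs steer cell polarity and movement without β-catenin. Secreted frizzled-related proteins (SFRP, FRZB) and WIF1 bind the ligands themselves. Of the Dickkopf proteins (DKK), DKK1, DKK2 and DKK4 bind the LRP co-receptors. In the liver Wnt signals from endothelial cells set the zones of the lobule, and in muscle they take part in myogenesis, in the growth of connective tissue and in the building of the neuromuscular junction.

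Total counts ranged from 12433300 to 43339598 per library. Hepatocyte markers summed to between 29920 and 343200 CPM (read counts scaled to library size) in liver libraries and to at most 369.7 CPM in muscle, and skeletal muscle markers summed to between 21360 and 31960 CPM in muscle and to at most 40.4 CPM in liver, so each tissue carried the markers of its label. Erythroid markers reached 4196 to 4833 CPM in liver and 6.67 to 17.8 CPM in muscle. The library set of Control-AI 2 stood apart in both tissues: it lay at 49.3 on the first principal component in liver and at 48.5 in muscle, while the other fetuses were all below 0. Its hepatocyte marker sum of 343200 CPM in liver compared with 29920 to 57680 CPM in the other 5 livers. CPM are given here on 1 scale over the 12 libraries, after normalization by the trimmed mean of M values (TMM). The TMM factor was 0.748 for the liver of Control-AI 2 and 0.964 to 1.04 for the other 5 livers. A low factor raises all CPM of a library above those by library size alone. Levels of different genes were not set against each other, since the gene lengths in the tables span introns.

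Of the 41 genes, 29 had a mean of 1 CPM or more in at least 1 tissue, 28 in muscle and 20 in liver. The ligands were the least detected class: 10 of the 12 genes with a mean under 1 CPM in both tissues were ligands. WNT1 and WNT8A had no read in any of the 12 libraries, which at 3 counts over each tissue allows a level of up to 0.019 CPM in liver and 0.0241 CPM in muscle. These limits cover counting error only. WNT6, WNT10A, WNT16, WNT3A and DKK4 had no read in liver and 30, 12, 136, 15 and 1 reads in muscle. Set against the limit of 3 counts over the 6 livers, muscle was at least 57.5-fold higher for WNT16, at least 12.7-fold for WNT6, at least 6.35-fold for WNT3A and at least 5.08-fold for WNT10A, whereas 1 read allowed no fold for DKK4.

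Summed over each class, the inhibitors and the ligands differed most between the tissues. The 10 inhibitors summed to between 456.2 and 598.2 CPM in muscle and to between 38.1 and 65.6 CPM in liver. The 19 ligands summed to 85.4 to 126.3 CPM in muscle and to 18.6 to 49.9 CPM in liver, and the highest liver sum was that of Control-AI 2, the other 5 livers lying at or below 21.4 CPM. The LRP co-receptors summed to 345.3 to 481.3 CPM in muscle and to 292.2 to 343.9 CPM in liver. The 10 Frizzled receptors ran the other way, with 296.6 to 365.4 CPM in liver and 256.2 to 282.2 CPM in muscle, and FZD5 alone held between 209.8 and 268 CPM of the liver sum. In none of the 4 classes did the 6 livers overlap the 6 muscles.

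**Figure D1:**
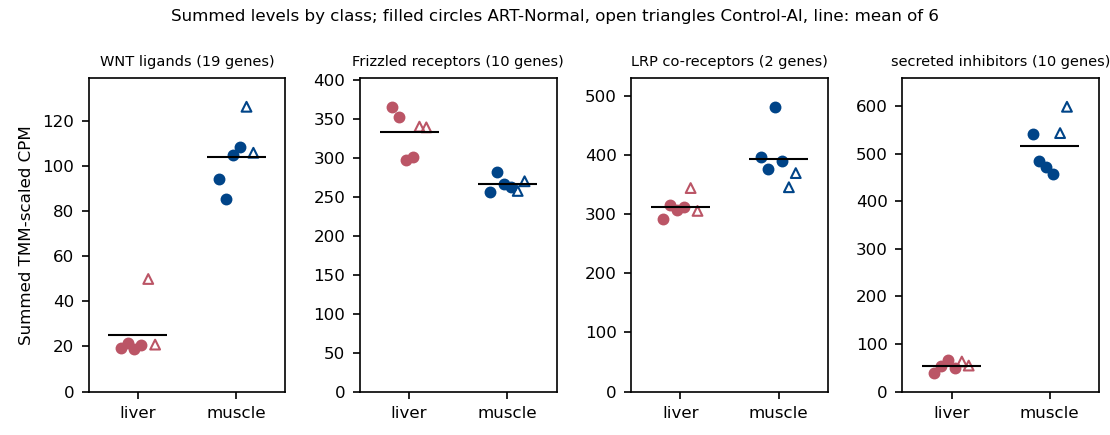
Summed TMM-scaled CPM (y axis, from 0) of the ligands, Frizzled receptors, LRP co-receptors and secreted inhibitors in each liver and muscle library, with ART-Normal as filled circles, Control-AI as open triangles and the mean of 6 as a line. Inhibitors, ligands and co-receptors sit higher in muscle, and Frizzled receptors sit higher in liver.

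The first question was how the 2 tissues of the same fetuses differed. A gene was tested when it reached at least 5 CPM in every library of 1 group, and 24 of the 41 genes did so: 5 ligands, the 10 Frizzled receptors, both co-receptors and 7 inhibitors. By edgeR's quasi-likelihood test over 12923 genes, with conception group as a covariate, 20 of the 24 differed at an adjusted p of 0.05 or lower, against 81.3% of all genes tested. Of these, 18 were higher in muscle (40.5% of all genes) and 2, FZD5 and SFRP5, were lower (40.8% of all genes). The route through the filter bears on these counts: 12 of the 24 passed in muscle alone and 2 in liver alone. Among the 10 that passed in both tissues, 7 were higher in muscle and none was lower, while 36.5% of the 10076 genes of that kind were higher. The median log2 fold change, muscle over liver, was 1.07 over these 10 and -0.05 over all genes that passed in both tissues. For the 12 that passed in muscle alone it was 5.09, where all such genes had a median of 3.49 and 95.9% of them were higher in muscle. The libraries of the tissues did not overlap for 19 of the 24 (64.6% of all genes), with muscle on the higher side for 17 (32.6% of all genes). A difference of at least 2-fold was called for 18 (46.9% of all genes), and 10 differed by at least 8-fold (17% of all genes). All 10 of the latter had passed the filter in 1 tissue only, 9 in muscle and FZD5 in liver. In bulk tissue, more cells of a type and more RNA per cell cannot be told apart.

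The connective tissue markers moved with the muscle side of this comparison. The 8 markers (collagens, DCN, LUM, POSTN, PDGFRA and FAP) summed to 22730 to 30340 CPM in muscle and 843.3 to 1485 CPM in liver, and none of them was at 0 in every library of either tissue. Cartilage markers summed to 40.1 to 59.3 CPM in muscle and 8.14 to 16.8 CPM in liver, a difference carried by COL2A1 and SOX9, whereas MATN1 and COMP were at most 1.90 CPM in any library and overlapped between the tissues. Tendon markers summed to 12.1 to 26.3 CPM and 0.311 to 1.09 CPM, with TNMD at 0 in all livers. Schwann cell markers reached 16.95 to 102 CPM in muscle and 1.78 to 5.95 CPM in liver. Mesothelial marker sums overlapped, at 19.3 to 26.1 CPM in muscle and 11.6 to 19.4 CPM in liver. Of these markers MSLN and UPK3B were higher in all muscles, KRT19 was higher in all livers and WT1 overlapped. The 7 markers of hepatic stellate and portal mesenchyme summed to 1078 to 1720 CPM in muscle and 413.1 to 498.2 CPM in liver, but DES, which is also a skeletal muscle marker, held 919.8 to 1539 CPM of the muscle sum and 4.13 to 6.74 CPM of the liver sum. RELN (186.8 to 254.3 CPM in liver and 14.5 to 26.5 CPM in muscle), COLEC11, HAND2 and LHX2 were higher in all livers than in all muscles, and PDGFRB and NGFR overlapped. Muscle progenitor markers were at 89.5 to 131 CPM in muscle and at most 0.445 CPM in liver, with MYOD1 at 0 there. The muscle sum came from MYF5 and MYOD1. PAX3 was at most 0.0792 CPM in any library and overlapped between the tissues, and PAX7 was not found. Endothelial markers summed to 623.6 to 706.2 CPM in muscle and 695.6 to 798.6 CPM in liver, and the single genes went both ways: STAB2 (221 to 283 CPM in liver and 0.793 to 2.08 CPM in muscle), VWF, LYVE1 and CLEC4G were higher in liver, while KDR, CDH5 and PECAM1 (36.7 to 43.4 CPM in liver and 165 to 186 CPM in muscle) were higher in muscle. Macrophage markers were at 40.4 to 64.1 CPM in muscle and 179.2 to 249.4 CPM in liver. Bile duct marker sums overlapped, at 19.7 to 31.4 CPM in muscle and 24.2 to 44.6 CPM in liver. EPCAM and KRT19 were higher in all livers, SOX9 was higher in all muscles and KRT7 overlapped. The part of all these markers in the differences below was not tested.

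**Figure D2:**
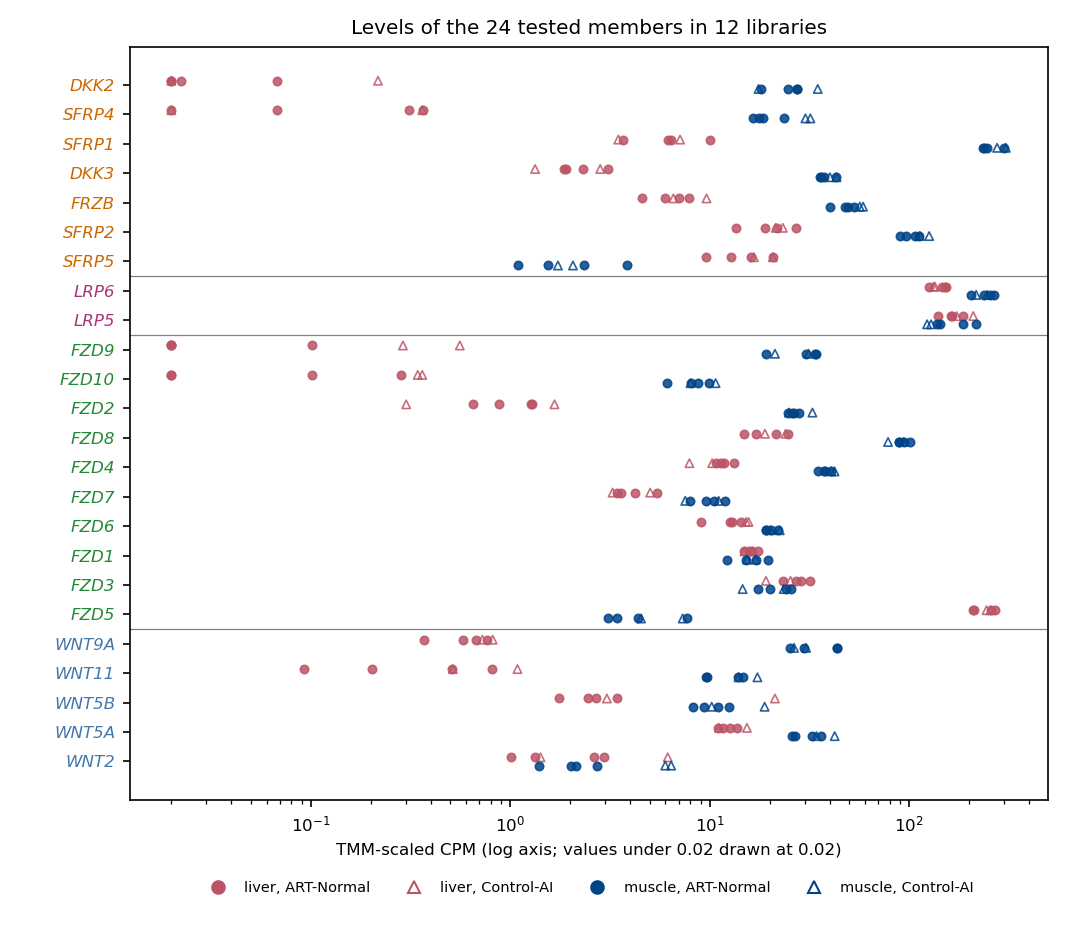
TMM-scaled CPM (x axis, log scale) of the 24 tested genes in each of 12 libraries, grouped by class, with liver in red, muscle in blue, ART-Normal as filled circles and Control-AI as open triangles. For 19 genes the 6 liver points and the 6 muscle points do not overlap, and FZD5 and SFRP5 are the 2 of these with liver on the higher side.

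Among the ligands, WNT9A and WNT11 were read mainly in muscle. WNT9A, a ligand known from joint and limb development, lies on chromosome 7 (3134998 to 3164813, plus strand, ARS-UCD1.2). It was at 29.7, 25.1, 43.4 and 43.5 CPM in muscle of the 4 ART-Normal fetuses, 1 to 4, while Control-AI 2 and 4 had 26.5 and 30.4 CPM. In liver it was at 0.369, 0.578, 0.768 and 0.677 CPM and at 0.725 and 0.816 CPM. All 6 muscles were thus far above all 6 livers, with a log2 fold change of 5.66 (SE 0.22, adjusted p = 1.69e-11). WNT11, which acts mostly without β-catenin in cell movements, was at 9.66, 9.60, 13.8 and 14.7 CPM in ART-Normal muscle and at 17.3 and 13.9 CPM in Control-AI muscle. In liver its values were 0.0922, 0.511, 0.809 and 0.203 CPM, then 1.09 and 0.516 CPM, and the log2 fold change was 4.67 (SE 0.36, adjusted p = 1.97e-08).

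WNT5A, the best known ligand of the polarity branch, was found in both tissues, at 26.0 to 42.3 CPM in muscle (median 33.4) and 11.01 to 15.4 CPM in liver (median 12.1). The groups did not overlap, and it was higher in muscle by 1.38 on the log2 scale (SE 0.12, adjusted p = 1.26e-07). Its close relative WNT5B was higher in muscle by 1.40 (SE 0.43, adjusted p = 0.00841), but here the groups overlapped. The overlap came from Control-AI 2, whose liver was at 21.2 CPM where the other 5 livers were at 1.75 to 3.42 CPM. WNT5B shares 15042 of its 80319 bp with FBXL14 on the opposite strand, and reads of such a pair cannot be told apart when strand is not used in counting. WNT2, which liver endothelium is known to secrete, showed no difference past the threshold, with 1.39 to 6.41 CPM in muscle, 1.01 to 6.16 CPM in liver and a log2 fold change of 0.31 (SE 0.36, adjusted p = 0.439).

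Some ligands below the filter were still measurable in 1 tissue. WNT2B was at 2.55 to 4.67 CPM in muscle and 0 to 0.362 CPM in liver, but its whole span of 14563 bp lies inside ST7L on the other strand. WNT16 was at 0.347 to 1.78 CPM in muscle, WNT4 at 0.792 to 4.60 CPM in muscle and 0 to 2.83 CPM in liver, and the inhibitor WIF1 at 0.738 to 2.49 and 0.0404 to 2.17 CPM. WNT9B was the only ligand with clearly more reads in liver, at 0.801 to 2.13 CPM against 0 to 0.13 CPM in muscle. With WNT2, WNT9B is known as a signal of the endothelium around the central vein. When the filter was left out, 15 further genes of the 41 were fitted: 9 were higher in muscle, and WNT9B (-4.47, SE 0.63, adjusted p = 1.32e-05) and the inhibitor DKK1 (-1.31, SE 0.54, adjusted p = 0.0431) were lower. In that fit 13079 of all 18749 genes were called.

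Ligand genes often lie in neighbouring pairs, and these pairs were read together. WNT3A and WNT9A lie 27560 bp apart on chromosome 7 on opposite strands, and had 15 and 4181 reads in muscle and 0 and 102 in liver. WNT9B and WNT3 lie 46023 bp apart on chromosome 19 on opposite strands, with 191 and 2 reads in liver and 6 and 49 in muscle, so that the partners differed in direction. WNT6 and WNT10A, 7499 bp apart on chromosome 2 on 1 strand, had 30 and 12 reads in muscle and none in liver. WNT1 and WNT10B, 5671 bp apart on chromosome 5, had 0 and 92 reads in muscle and 0 and 13 in liver.

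Frizzled receptors fall into subfamilies by sequence, and relatives did not always go the same way. FZD9, FZD10 and FZD4 form one of them, and all were higher in muscle. FZD9 (chromosome 25, 33732299 to 33735393, minus strand) was at 19.2, 33.5, 30.2 and 33.9 CPM in the ART-Normal muscles, and Control-AI 2 and 4 had 31.3 and 21.2 CPM. From 20 reads in all, its livers were at 0, 0, 0 and 0.102 CPM with ART and at 0.29 and 0.559 CPM in the controls. The log2 fold change of 7.71 (SE 0.54, adjusted p = 7.86e-09) was the largest among the receptors.

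FZD10 (chromosome 17, 46932746 to 46934705, minus strand) was the other receptor nearly without reads in liver, with 23 in all. Its muscle values were 6.14, 9.94, 8.77 and 8.08 CPM with ART and 10.7 and 8.01 CPM in controls. Its liver values were 0, 0, 0.283 and 0.102 CPM, then 0.362 and 0.344 CPM, for a log2 fold change of 5.77 (SE 0.49, adjusted p = 6.61e-08). FZD4, a receptor of blood vessels that also binds norrin, was at 34.7 to 42.2 CPM in muscle and 7.91 to 13.2 CPM in liver (log2 fold change 1.84, SE 0.12, adjusted p = 2.34e-09).

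FZD5 and FZD8 are close relatives, and they went in opposite directions. FZD5 (chromosome 2, 96034762 to 96042102, minus strand) was at 268, 256, 210.4 and 209.8 CPM in the livers of ART-Normal 1 to 4 and at 255 and 244 CPM in those of Control-AI 2 and 4. In muscle it was at 3.44, 7.72, 3.08 and 4.36 CPM and at 4.52 and 7.32 CPM. Every liver lay far above every muscle, and the log2 fold change, muscle over liver, was -5.58 (SE 0.22, adjusted p = 1.72e-11). FZD8 was at 78.3 to 101 CPM in muscle and 14.8 to 24.8 CPM in liver, higher in muscle by 2.17 on the log2 scale (SE 0.13, adjusted p = 1.15e-09).

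In the subfamily of FZD1, FZD2 and FZD7, the last of which is known as a receptor of muscle stem cells, the tissue difference ran from none detected to large. FZD2 was at 28.1, 25.7, 26.4 and 24.6 CPM in ART-Normal muscle and 32.7 and 24.9 CPM in Control-AI muscle. In liver it was at 1.29, 1.27, 0.647 and 0.88 CPM, then 1.67 and 0.301 CPM, with a log2 fold change of 4.76 (SE 0.28, adjusted p = 1.06e-09). FZD7 was higher in muscle by 1.23 (SE 0.18, adjusted p = 2.60e-05), at 7.54 to 11.9 against 3.26 to 5.45 CPM. For FZD1 the values overlapped, at 12.2 to 19.5 CPM in muscle and 14.9 to 17.4 CPM in liver, and the log2 fold change of 0.01 (SE 0.12) did not pass the test (adjusted p = 0.94).

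FZD3 and FZD6, the Frizzleds of planar polarity, differed little between the tissues. FZD6 was higher in muscle by 0.64 (SE 0.12, adjusted p = 0.000209), with 19.1 to 22.4 CPM against 9.01 to 15.7 CPM. FZD3 had overlapping values of 14.6 to 25.5 CPM in muscle and 19.1 to 31.8 CPM in liver, and its log2 fold change of -0.31 (SE 0.14) had an adjusted p of 0.0601. When the fetus entered the fit as a block, FZD3 passed at -0.32 (adjusted p = 0.00949).

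Both co-receptors were read in every library of both tissues. LRP6 (chromosome 5, 97526894 to 97705353, plus strand) was at 253, 238, 266 and 204 CPM in ART-Normal muscle, while the controls had 217 and 246 CPM. Its livers were at 153, 152, 145 and 126 CPM and at 134 and 132 CPM, so the tissues did not overlap and muscle was higher by 0.76 (SE 0.08, adjusted p = 1.27e-06). LRP5 (chromosome 29, 45803336 to 45927824, plus strand) was at 143, 138, 215 and 186 CPM in ART-Normal muscle, 129 and 123 CPM in Control-AI muscle, 139, 164, 162 and 185 CPM in ART-Normal liver and 209 and 173 CPM in Control-AI liver. These values overlapped, and the log2 fold change of -0.15 (SE 0.15) did not pass (adjusted p = 0.34). In the ART-Normal libraries alone its sign turned, to 0.06 (adjusted p = 0.733).

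**Figure D3:**
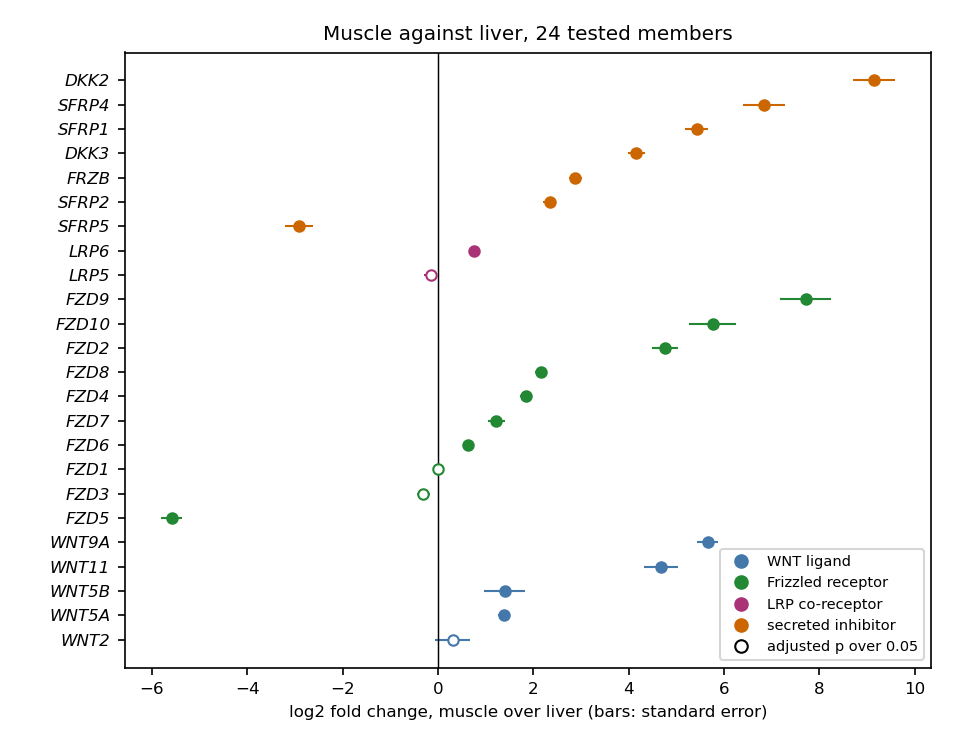
Log2 fold change of muscle over liver (x axis) with its standard error as a bar for the 24 tested genes, coloured by class, open where the adjusted p was over 0.05. DKK2 lies farthest right at 9.15 and FZD5 farthest left at -5.58, while FZD1, FZD3, LRP5 and WNT2 are open.

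Of the 7 secreted inhibitors tested, 6 were higher in muscle, against 40.5% of all genes. Of these 6, DKK2, DKK3, SFRP1 and SFRP4 had passed the filter in muscle alone, where 95.9% of all genes were higher, and FRZB and SFRP2 had passed in both tissues. DKK2 (chromosome 6, 18125623 to 18254825, plus strand), a Dickkopf that binds the LRP co-receptors, was at 27.2, 18.1, 27.4 and 24.8 CPM in ART-Normal muscle and at 17.6 and 34.8 CPM in Control-AI muscle. In liver it had 6 reads in all, giving 0, 0.0222, 0 and 0.0677 CPM with ART and 0.217 and 0 CPM in controls. The value of 9.15 on the log2 scale (SE 0.43, adjusted p = 1.03e-10) therefore rests on very few liver reads. DKK3, a divergent Dickkopf, was at 35.6, 42.9, 37.5 and 36.2 CPM and at 43.2 and 40.0 CPM in muscle, and at 3.09, 1.87, 2.31 and 1.90 CPM and at 2.83 and 1.33 CPM in liver. Its log2 fold change was 4.16 (SE 0.18, adjusted p = 3.79e-11). DKK1 was low in both tissues, with 99 reads in liver and 35 in muscle over 6 libraries each.

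SFRP1 (chromosome 27, 36211718 to 36255293, minus strand), which binds Wnt proteins through a Frizzled-like domain, was at 299.6, 235, 244 and 238 CPM in ART-Normal muscle, while Control-AI 2 and 4 had 276 and 305 CPM. Its liver values were 3.69, 10.01, 6.43 and 6.16 CPM, then 7.10 and 3.48 CPM, and the log2 fold change was 5.43 (SE 0.24, adjusted p = 6.14e-11). SFRP4 (chromosome 4, 49731830 to 49742113, minus strand) was at 16.6, 23.6, 17.7 and 18.4 CPM in ART-Normal muscle and at 32.0 and 30.2 CPM in Control-AI muscle. In liver SFRP4 had 30 reads in all, at 0, 0.311, 0.364 and 0.0677 CPM and at 0.362 and 0 CPM, and the log2 fold change was 6.83 (SE 0.44, adjusted p = 3.32e-09).

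FRZB, first known from cartilage, was at 52.9, 47.9, 49.6 and 40.0 CPM in ART-Normal muscle and 56.5 and 58.7 CPM in Control-AI muscle. Its livers were at 7.004, 5.96, 7.88 and 4.57 CPM and at 9.63 and 6.57 CPM (log2 fold change 2.89, SE 0.14, adjusted p = 1.88e-10). SFRP2 was higher in muscle by 2.35 (SE 0.14, adjusted p = 1.15e-09), at 90.2 to 126 CPM against 13.6 to 27.1 CPM. SFRP5 (chromosome 26, 18914372 to 18919213, minus strand) was the 1 inhibitor on the liver side. It was at 9.59, 12.8, 20.8 and 16.1 CPM in ART-Normal liver and 16.7 and 20.7 CPM in Control-AI liver, while muscle was at 1.54, 2.33, 3.86 and 1.09 CPM and at 1.73 and 2.06 CPM. The tissues did not overlap, and the log2 fold change was -2.92 (SE 0.29, adjusted p = 4.26e-07).

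Spread among fetuses differed by gene. Over the 4 ART-Normal muscles the coefficient of variation had a median of 16.4% for the 22 genes tested there and 11.6% for all genes tested, and over the ART-Normal livers it was 12.8% for 12 genes and 12.7% for all. In muscle the receptors FZD2 (5.71%), FZD8 (5.82%) and FZD4 (6.15%) varied least, and WNT2 (26.7%), WNT9A (26.6%) and FZD9 (23.5%) varied most. In liver FZD1 (6.43%), LRP6 (8.74%) and FZD4 (8.76%) varied least, and SFRP5 (32.4%) varied most.

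The second question was whether conception by ART was accompanied by other levels of these genes than insemination, with 4 fetuses against 2. In muscle 22 of the genes were tested among 11695, and none was called at an adjusted p of 0.05 or lower by edgeR's quasi-likelihood test, where 1 gene (0.00855%) was called overall. At an unadjusted p under 0.05 there were 3 of the 22, against 9.19% of all genes. The groups did not overlap for 6 of the 22 (16% of all genes): 5 of them, WNT2, SFRP4, FRZB, SFRP2 and FZD4, had lower values in ART-Normal (7.89% of all genes), and LRP5 had higher values (8.15% of all genes). WNT2 is among the 3 and among the 6, and it had passed the filter only through the 2 Control-AI muscles, so that its entry depended on its being high there. Without WNT2, 2 of 21 genes had an unadjusted p under 0.05 and 5 of 21 did not overlap. The 5 genes with the smallest p are given in turn.

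WNT2 was at 2.02, 1.39, 2.73 and 2.13 CPM in the ART-Normal muscles and at 6.41 and 5.99 CPM in the Control-AI muscles, so all 4 ART fetuses were below both controls. The log2 fold change, ART-Normal over Control-AI, was -1.56 (SE 0.28, adjusted p = 0.222). Other tests gave a call for this gene, the likelihood ratio test of the study (adjusted p = 5.32e-05) and DESeq2 (adjusted p = 0.00402), and the same entry through the controls applies to them. Over all 11695 genes in muscle the likelihood ratio test called 120 and DESeq2 called 106. SFRP4, at 16.6 to 23.6 CPM against 30.2 and 32.0 CPM, had a log2 fold change of -0.70 (SE 0.17, adjusted p = 0.315) and was called by the likelihood ratio test (adjusted p = 0.0467).

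Of the 22 genes, LRP5 alone had every ART-Normal muscle above both controls (138 to 215 CPM with ART, 123 and 129 CPM in controls). The fitted difference for LRP5 was 0.44 on the log2 scale (SE 0.18, adjusted p = 0.502). WNT5B was at 8.28 to 12.5 CPM with ART and at 18.8 and 10.2 CPM in the controls, which overlapped (-0.48, SE 0.26, adjusted p = 0.631). FRZB was at 40.0 to 52.9 CPM against 56.5 and 58.7 CPM (-0.27, SE 0.15, adjusted p = 0.636). None of these 5, which were picked by their small p, passed the adjusted threshold, so the direction is not settled for any of them.

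Other measures moved with the groups in muscle. The connective tissue marker sum was at 22730 to 26990 CPM with ART and at 29170 and 30340 CPM in the controls, without overlap and with none of the 8 markers at 0. Of its markers COL1A2 and PDGFRA overlapped, and the others were higher in both controls. The part of this sum in the lower values of SFRP4, FRZB, SFRP2 and WNT2 was not tested. When Control-AI 4 was left out, so that Control-AI 2 was the lone control, 1327 genes were called in all, among them SFRP4, WNT2 and WNT5B. When Control-AI 2 was left out, 5 genes were called and none of them was one of the 41.

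**Figure D4:**
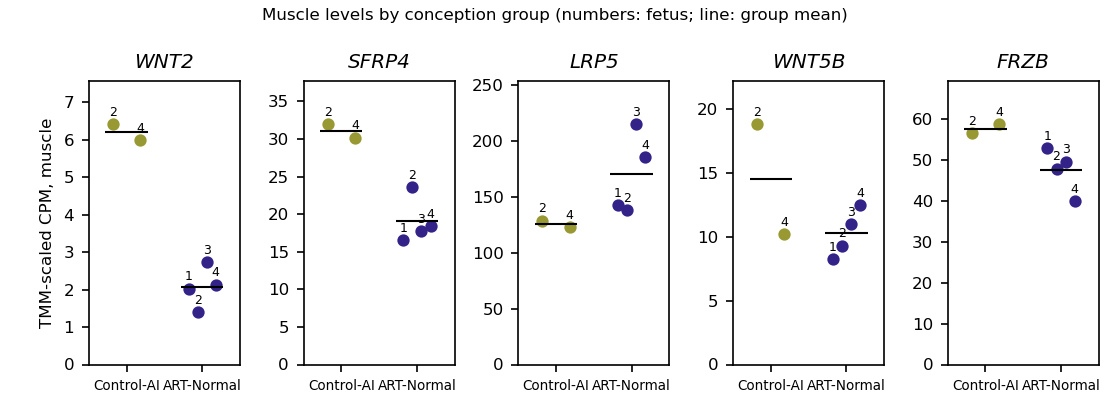
TMM-scaled CPM in muscle (y axis, from 0) of WNT2, SFRP4, LRP5, WNT5B and FRZB in 2 Control-AI and 4 ART-Normal fetuses, numbered by fetus, with group means as lines. ART-Normal points lie below both controls for WNT2, SFRP4 and FRZB and above both for LRP5, and overlap for WNT5B, where Control-AI 2 stands at 18.8 CPM.

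In liver 12 of the genes were tested among 11304, and none was called (0% of all genes, by edgeR's quasi-likelihood test). None of the 12 had an unadjusted p under 0.05, against 8.39% of all genes. The likelihood ratio test called 89 genes and DESeq2 called 56, again with none of the 12. The groups did not overlap for 2 of the 12 (18.4% of all genes), 1 with higher values in ART-Normal (9.19%) and 1 with lower values (9.18%). Marker sums differed between the groups here too. The hepatocyte sum was at 29920 to 49790 CPM with ART and at 57680 and 343200 CPM in the controls. Of its markers ALB, AHSG, AFP and SERPINA1 were higher in both controls, and APOA1, APOA2, FGB and TTR overlapped. The endothelial sum was at 695.6 to 778.9 CPM against 785.6 and 798.6 CPM, but each of its markers overlapped. Their part in the values below was not tested. FZD4 was at 10.8 to 13.2 CPM with ART and at 10.3 and 7.91 CPM in the controls (0.37, SE 0.21, adjusted p = 0.592), and FZD6 was at 9.01 to 14.3 CPM against 15.7 and 15.2 CPM (-0.34, SE 0.21, adjusted p = 0.615). FZD3 (0.31, SE 0.19, adjusted p = 0.606), LRP5 (-0.24, SE 0.15, adjusted p = 0.614) and FRZB (-0.35, SE 0.27, adjusted p = 0.661), which had passed the filter only through the 2 Control-AI livers, overlapped. WNT5B was below the filter in liver and entered when Control-AI 2 was the lone control, through that library alone. It was at 21.2 CPM there and at 1.75 to 3.42 CPM with ART, so its call in that fit rests on the value that admitted it.

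Whether the ART difference itself differed between the tissues was tested as an interaction in all 12 libraries. None of the 24 genes was called (0% of 12923 genes by edgeR's quasi-likelihood test), and 4 had an unadjusted p under 0.05, against 5.55% of all genes. FZD9 had the smallest p. Its interaction, the log2 difference of ART-Normal over Control-AI in muscle less that in liver, was 4.07 (SE 0.93, adjusted p = 0.648), and it turned on liver counts of 0, 0, 0 and 3 reads in ART-Normal and 4 and 13 reads in Control-AI. The likelihood ratio test (adjusted p = 0.000794) and DESeq2 (adjusted p = 0.0136) called it. Over all 12923 genes the likelihood ratio test called 98 interactions and DESeq2 called 37. LRP5 came next with 0.67 (SE 0.26, adjusted p = 0.815), with 138 to 215 CPM against 123 and 129 CPM in muscle and 139 to 185 CPM against 173 and 209 CPM in liver.

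The rest of the pathway was read from a list of 71 genes, 70 of which were in the tables. In the tissue comparison 60 were tested, and 38 were higher and 10 lower in muscle by edgeR's quasi-likelihood test, where 81.3% of all genes differed, 40.5% as higher and 40.8% as lower in muscle. Of the 60, 8 had passed the filter in muscle alone and all 8 were higher there, and 4 had passed in liver alone and 3 of these were lower in muscle. Of the 48 that passed in both tissues 30 were higher and 7 lower, beside 36.5% and 40.3% of all such genes, with a median log2 fold change of 0.72 for the 48 and -0.05 for all. The 10 other receptors and co-receptors tested were all called, 8 of them as higher in muscle (40.5% of all genes). Of these 8, GPC4, KREMEN2, MUSK and ROR2 had passed the filter in muscle alone, where 95.9% of all genes were higher. MUSK, the receptor kinase of the neuromuscular junction that carries a Frizzled-like domain, was higher in muscle with a fitted log2 fold change of 11.74 (SE 0.39, adjusted p = 2.99e-12). It had 15812 reads in muscle and 5 in liver, 4 and 1 of these in the Control-AI livers and 0 in the ART-Normal livers, so that its size rests on very few reads. KREMEN2, a partner of Dickkopf proteins, had 860 reads in muscle and none in liver and was at least 364-fold higher in muscle. The glypican GPC4 (4.91, SE 0.19, adjusted p = 1.72e-11), PTK7 (3.52, SE 0.08, adjusted p = 1.99e-13) and ROR2 (3.49, SE 0.17, adjusted p = 1.26e-10), the last a receptor of WNT5A, were on the muscle side as well.

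Inside the cell, DACT1, which binds Dishevelled (3.05, SE 0.11, adjusted p = 9.75e-12), and PRICKLE1 of planar polarity (3.37, SE 0.10, adjusted p = 1.20e-12) were higher in muscle. Of 15 cytoplasmic genes tested 11 were higher and 1 was lower, of 12 nuclear genes 9 were higher and 1 was lower, and of 9 planar polarity genes 5 were higher and 3 were lower. In each of these subgroups the share called lies near the 81.3% of all genes, and the shares of all genes called higher and lower are 40.5% and 40.8%. RNF43, the ubiquitin ligase that removes Frizzled receptors from the membrane, was lower in muscle (-4.69, SE 0.19, adjusted p = 1.92e-11), on the same side as FZD5. Both had passed the filter in liver alone, where 98.5% of all genes were lower in muscle. Of 11 genes known as transcriptional targets of β-catenin 4 were higher and 2 were lower in muscle, against the same 40.5% and 40.8%, and their median was 0.13 where that of all genes was -0.01.

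No gene of the pathway list was called between ART-Normal and Control-AI, with 56 tested in muscle and 52 in liver by edgeR's quasi-likelihood test. At an unadjusted p under 0.05 there were 4 in muscle (9.19% of all genes) and 3 in liver (8.39% of all genes), and the likelihood ratio test and DESeq2 each called 1 gene per tissue, ZNRF3 in muscle and NKD2 in liver. In muscle ZNRF3, the partner ligase of RNF43 (0.98, SE 0.24, adjusted p = 0.315), and NKD1, an inhibitor of Dishevelled (0.96, SE 0.28, adjusted p = 0.343), had the smallest p, and both were higher in all 4 ART-Normal fetuses than in both controls. In liver these were NKD2 (-0.97, SE 0.22, adjusted p = 0.389) and MYC (-0.40, SE 0.16, adjusted p = 0.578), both lower in all 4. In the interaction ZNRF3 (1.13, SE 0.30, adjusted p = 0.648) and MUSK (5.01, SE 1.42, adjusted p = 0.703) came first among the listed genes, and neither was called, though the likelihood ratio test called MUSK. The value of MUSK turns on the same 5 liver reads.

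**Figure D5:**
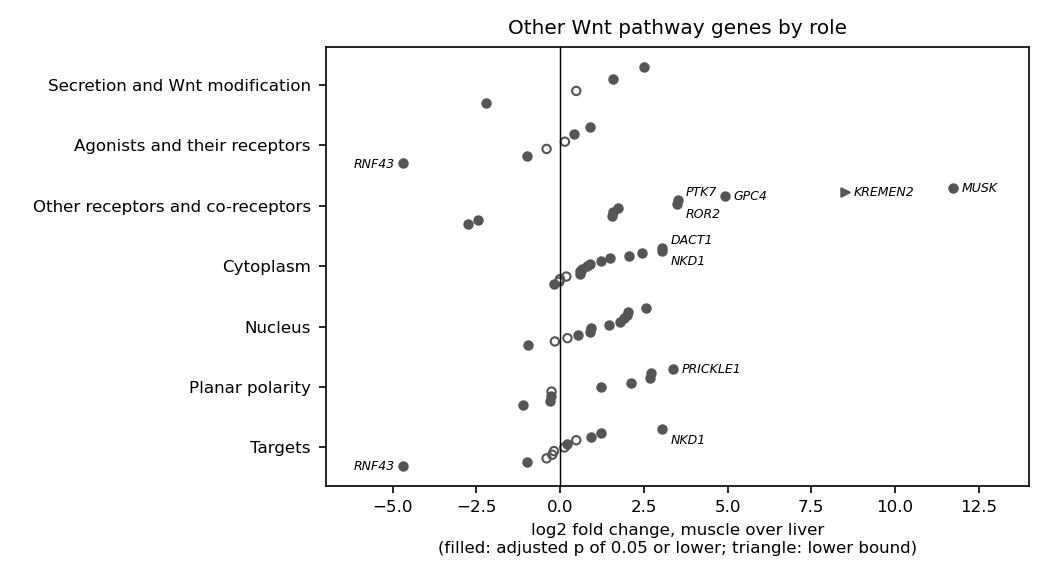
Log2 fold change of muscle over liver (x axis) of the 60 tested genes of the pathway list by role, filled where the adjusted p was 0.05 or lower, with KREMEN2 drawn as a triangle at its lower bound. Genes listed under 2 roles appear in both, receptors and co-receptors reach from below 0 to 11.74 for MUSK with its 5 liver reads, and targets lie on both sides of 0.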

How the data were processed

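RNA-seq of liver and skeletal muscle from 6 fetuses was analysed from the counts that the authors deposited, 1 table of raw values per tissue. The submitters' processing notes name HISAT2 2.1.0, featureCounts and ARS-UCD1.2. Libraries were strand-specific, and whether strand was used in counting is not given in the sources used here. All 21048 listed lengths equal the whole gene span, so counts can include intronic reads. Each table has 13 count columns; 6 carry the fetus names of the samples and 7 were not used. Another 9 gene identifiers occur on 2 lines each and none is among the 41 genes.

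Counts were fitted with edgeR 4.0.16 in R 4.3.3 (glmQLFit and glmQLFTest, TMM, two-sided, Benjamini-Hochberg over all tested genes, threshold 0.05), for genes at 5 CPM or more in each library of 1 group. Standard errors were computed by dividing log2 fold changes by the root of F. The filter and threshold follow the study, which used the likelihood ratio test. Alternatives were that test, DESeq2 1.42.0, other normalizations and filters, a replicate block, joint or ART-Normal fits, and leaving out each fetus. Procedures were tested on simulated data. The authors' own comparison tables, which hold log2 fold changes, a likelihood ratio score and p-values, were not used.

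The 41 genes, the pathway list and the marker lists were chosen with earlier results of these data known. Values in every library are given for the 12 largest tissue differences, LRP5 and LRP6; between conception groups the 5 smallest p-values per tissue and the 2 smallest for the interaction are named. For the pathway list the 8 largest called differences are named, or the 2 smallest p-values where none was called. Every gene tested between tissues is named. DKK1, the ligands without liver reads or in neighbouring pairs, and SFRP2 and FZD4 in the muscle of the conception groups were named after their values were seen. Samples of 1 fetus share an animal. Deviations from the group mean correlated between the tissues of a fetus at r = 0.067 to 0.544 over 12923 genes. TRABD2A was not found in the tables. No sequences were printed.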

Additional observations from a re-analysis of the deposited data

Results flagged for a closer look

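SFRP1 in the muscle of ART-Normal 1 stood apart from the other ART-Normal muscles. It was at 299.6 CPM where the others were at 235 to 244 CPM, and the gap was 0.86 of the range of the 4 libraries, above the 95% critical value of Dixon's test. Of 34 groups of 4 libraries looked at, this was the 1 group past that value, and chance alone gives about 1 in 20.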

How the results depend on the processing

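In the tissue comparison 20 genes were called, and 14 to 23 under the other settings except without a filter, where 39 genes were tested and 31 were called. Without a filter 13079 of all 18749 genes were called. The direction of FZD1 turned to -0.0094 with at least 10 counts in every library, to -3e-04 with the replicate block and to -0.0249 in ART-Normal libraries alone, and ran from -0.0598 to 0.0877 when 1 fetus was left out. LRP5 turned to 0.0567 in ART-Normal libraries alone. With the fetus as replicate block 21 genes were called instead of 20, FZD3 being added, and it changed no call in the interaction. Between conception groups 0 genes were called in muscle, 2 with the likelihood ratio test, 1 with DESeq2, 1 with the replicate block by label number and 0 to 3 with 1 fetus left out, the highest without Control-AI 4. The label numbers marked no shared animal or litter between the conception groups, and same-numbered libraries correlated at -0.176 to 0.022. In liver 0 were called, 0 with the replicate block by label number and 0 to 1 with 1 fetus left out. The interaction gave 0, 1 with the likelihood ratio test, 1 with DESeq2 and 0 to 1 with 1 fetus left out. The pathway list gave 0 between conception groups, 1 in each tissue with the likelihood ratio test and with DESeq2, and 0 to 1 in liver and 0 to 4 in muscle with 1 fetus left out. In the conception comparisons and the interaction the highest count of each range came without Control-AI 4. The causes were not tested. Scaling by library size alone moved the median log2 fold change of all genes to 0.21 between conception groups in liver, 0.13 between tissues and -0.20 in the interaction, and left the counts of the 41 genes at 20, 0, 0 and 0. With 2 controls, small differences between conception groups may have been missed.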

Other observations

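Control-AI 2, the fetus whose libraries stood apart, had the highest liver value for 15 of the 34 genes with a read in liver, where each of the other livers had it for 2 to 6. The same fetus had the highest muscle value for 16 of the 39 genes with a read in muscle, where each of the other muscles had it for 2 to 8. Both counts are on the TMM scale and were not made over all genes, so they cannot be read as particular to these genes. The 5 genes given here were chosen after their values were seen, and no test was made of them as a set. WNT11, FZD2, FZD6, FZD10, WNT2B, WNT5A, WNT7B, DKK2, LRP5 and FRZB were the other 10 with their highest liver value there, and WNT2, WNT4, WNT5B, WNT8B and WIF1 were highest in its muscle as well. In its liver WNT2 was at 6.16 CPM, against 1.01 to 2.95 CPM in the other 5 livers. WNT5B was at 21.2 CPM against 1.75 to 3.42 CPM, and WNT4 was at 2.83 CPM against 0 to 2.41 CPM. WIF1 was at 2.17 CPM against 0.0404 to 0.553 CPM. By library size alone WNT5B stayed highest there, at 15.9 CPM against 1.69 to 3.47 CPM. WNT4 did not, with 39 of 18454088 reads in Control-AI 2 and 56 of 23576123 in Control-AI 4. The other ranks were not counted by library size alone. WNT8B, a ligand of the forebrain, had 8 reads in the liver of Control-AI 2 and none in the others. In muscle WNT8B had 20 reads in Control-AI 2 and 1 read in ART-Normal 3, and none in the other 4 muscles. Skeletal muscle markers summed to 40.4 CPM in the liver of Control-AI 2 and to 7.24 to 8.97 CPM in the other livers. Hepatocyte markers summed to 369.7 CPM in the muscle of Control-AI 2 and to 25.1 to 63.4 CPM in the other muscles. The part of both in these values was not tested.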
